A study of Mus musculus with 4 samples.

Results

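The mTOR kinase works in a pair of complexes. The genes followed here encode the kinase (Mtor), the scaffold of complex 1 (Rptor), the scaffold of complex 2 (Rictor), a shared subunit (Mlst8), an inhibitory subunit (Deptor), both large subunits of the TSC complex (Tsc1 and Tsc2), the GTPase Rheb and the S6 kinase gene Rps6kb1. They were listed by symbol, and all 9 were found among the 55357 gene identifiers of the deposited count table, matched to symbols through the GENCODE M21 annotation of GRCm38. The list was not drawn from measured values of these genes, but earlier results of these data were known when it was chosen.

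The samples were testis cells of C57BL/6 mice aged 7 days, exposed to ultraviolet light, which links RNA to the proteins it touches. RNA that came down with an antibody to DDX20 (2 RIP libraries) was compared with RNA that was not precipitated (2 input libraries, made from 10% of the total RNA). DDX20, or Gemin3, is an RNA helicase of the SMN complex, which assembles spliceosomal small nuclear ribonucleoproteins. Neither group carried a mutation or a drug treatment according to the labels. The labels give the 2 RIP libraries antibody catalogue numbers that differ in a single character. Whether libraries of a group came from separate cell preparations is not stated, so p-values measure the spread between these libraries, which may be technical. No precipitation with a control antibody was used here, so a higher value does not show that DDX20 bound the message. A higher value is a larger fraction of the counted RNA only where total counts are the only scaling. With the scaling of the main results, a gene can be called higher while its fraction of all counts fell.

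mTOR complex 1 senses amino acids and growth factors at the lysosome, where the GTPase RHEB switches it on. TSC1 and TSC2 together turn RHEB off. Active complex 1 phosphorylates S6 kinase and the 4E-BP proteins and so raises protein synthesis, while complex 2 phosphorylates AKT. In the testis this pathway bears on whether spermatogonial stem cells persist or differentiate and on Sertoli cell growth.

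The SMN complex is known for recognising a short uridine-rich Sm site in small nuclear RNAs, so the letters ATTTTTG were looked for on the sense strand of the longest-coding transcript of each gene. They occurred 5 times in 3 of the 9 transcripts, and the windows are shown so that these stretches can be inspected beside the recovery of each message. Capitals mark the match, and T stands for U of the RNA. Positions are on GRCm38, and the sequences are from the GENCODE M21 transcripts.

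Mtor coding sequence, chr4:148453058-148453087, plus strand: ctgaaccatcacATTTTTGaactggtttcc
Mtor coding sequence, chr4:148454615-148454644, plus strand: ttctttgacaacATTTTTGtggctgtgtgg
Rictor 3′ UTR, chr15:6797222-6797251, plus strand: agcgataatttaATTTTTGttagtgttcct
Rictor 3′ UTR, chr15:6800081-6800110, plus strand: atacgctgctacATTTTTGgaggttctggt
Rps6kb1 3′ UTR, chr11:86502138-86502167, minus strand: tttttcaaatagATTTTTGattcagctcat

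Of 14680 tested genes with a coding transcript, 28.7% held these letters, at 0.119 matches per kilobase, against 0.0870 per kilobase over the 9 transcripts. Rptor and Tsc2, whose messages differed most between RIP and input among the 9, had no match, and neither had Rheb and Mlst8, which differed least. Over these 14680 genes the median log2 fold change was 0.37 with a match and -0.03 without one. Spearman's rho between matches per kilobase and fold change was 0.114 over the 14680 genes and 0.238 over the 9, as a description. A longer transcript has more places for a match, and fold change rose with transcript length (rho 0.579 over tested protein-coding genes). The part of length in the gap between the medians was not tested. A match is a description and not a binding site.

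The input libraries held 21913977 and 21416567 counts, the RIP ones 38458014 and 37927689. Levels are given as CPM, counts relative to library size after scaling by the trimmed mean of M values (TMM). Markers fixed for the cell types of a testis were present: summed input levels lay at 731 to 734 CPM for 7 germ cell genes, 2688 to 2721 for 5 Sertoli cell genes, 312 to 321 for 5 Leydig cell genes and 300.4 to 305 for 3 peritubular myoid genes. In RIP these sums were 396 to 402, 1843 to 1845, 146 to 149 and 174 to 186 CPM. Single genes weigh on these sums. In input Clu made up 2069 CPM of the Sertoli sum, Uchl1 485 CPM of the germ cell sum and Acta2 257 CPM of the myoid sum. The other myoid genes, Myh11 and Tagln, were not called with TMM scaling and were called lower with total counts. In the Sertoli list Wt1 (log2 fold change 0.70) and Gata4 (0.26) were called higher, and the median of that list was 0.12. In the germ cell list, with a median of -0.83, 4 genes were called lower and 2, Zbtb16 and Sall4, higher; neither these nor Gata4 passed with total counts. Endothelial, macrophage and red blood cell sums were 54.8 to 57.0, 88.1 to 90.6 and 239 to 242 CPM in input and 19.5 to 20.5, 30.6 to 30.8 and 69.9 to 70.3 CPM in RIP. No marker was at 0 in all libraries. The part of cell type markers in the results was not tested. A lower marker sum in RIP is a smaller fraction of the precipitated RNA and does not measure the number of cells of a type. Ddx20 itself stood at 41.3 ± 0.104 CPM in input and 80.4 ± 3.96 in RIP (mean ± SD, n = 2 libraries per group).

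Messages of the kinase, both scaffolds and both TSC subunits were 2.97- to 3.79-fold over-represented in the DDX20 precipitate. Those of S6 kinase and Deptor rose by 1.89- and 1.61-fold, and the ratios of 0.979 for Mlst8 and 0.935 for Rheb did not pass the test. Tested with edgeR (quasi-likelihood, Benjamini-Hochberg adjustment over all genes), 7 of the 9 passed an adjusted p of 0.05 as higher in RIP and 0 as lower. The background is wide: of 17422 genes tested, 38.7% passed as higher and 38.6% as lower, 77.3% in all. Among 14677 protein-coding genes 43.9% were higher and 35% lower. All 9 genes passed the low-count filter. The same 7 were called higher with total counts as the only scaling, where 28.7% of all genes were higher, 50.8% were lower, and the 2 others, Mlst8 and Rheb, were called lower. The median log2 fold change of the 9 was 1.57, against -0.05 over all genes tested; with total counts the medians were 1.22 and -0.40.

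**Figure D1:**
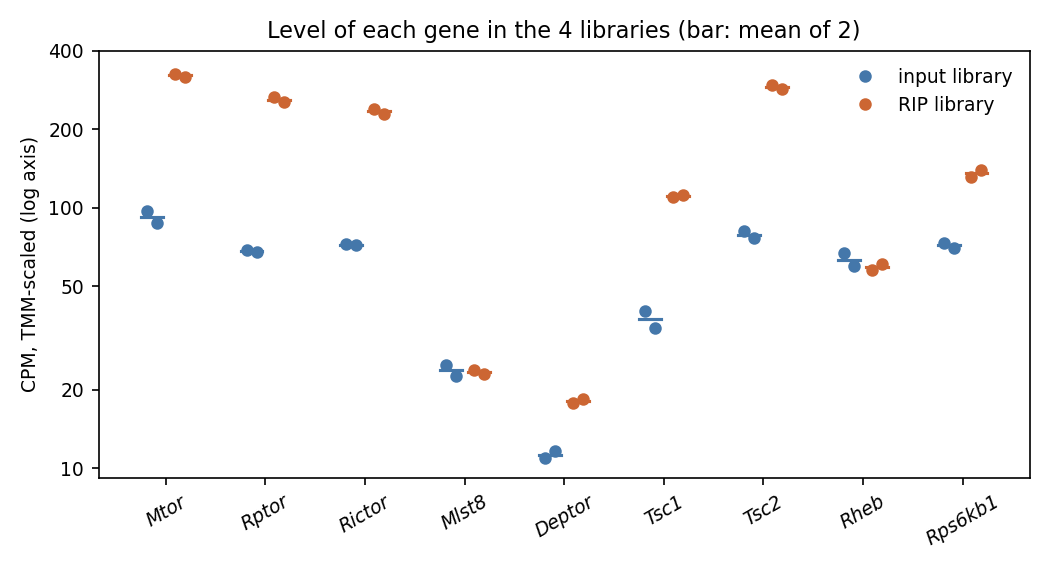
Level of each gene in CPM after TMM scaling, on a log axis, with 1 point per library and a bar at the mean of each group. RIP points lie above input points for 7 genes, from Deptor near 11 and 18 CPM to Mtor near 92 and 322 CPM, while the groups overlap for Mlst8 and Rheb.

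Mtor encodes the kinase that gives both complexes their activity. It lies on chromosome 4 from 148448611 to 148557683 (GRCm38; ENSMUSG00000028991.16) and has the longest coding sequence of the 9, at 7647 nt. Its level was 97.0 and 87.6 CPM in input and 326 and 317 CPM in RIP. Both RIP libraries stood far above both input libraries. The log2 fold change was 1.80 ± 0.0381 (SE; adjusted p = 7.00e-30, edgeR), a 3.48-fold difference that exceeded 97.1% of genes tested.

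The scaffolds that give the complexes their identity were recovered to a similar degree. Rptor encodes RAPTOR, which brings substrates to complex 1, and lies on chromosome 11 from 119602905 to 119899576 (ENSMUSG00000025583.16). It stood at 69.0 and 67.7 CPM in input and at 265 and 253 CPM in RIP, the largest change of the 9, with a log2 fold change of 1.92 ± 0.0384 (adjusted p = 1.30e-30, edgeR). Rictor encodes the scaffold of complex 2 and lies on chromosome 15 from 6708379 to 6800401 (ENSMUSG00000050310.10). It stood at 72.4 and 71.6 CPM in input and at 239.6 and 228 CPM in RIP, with a log2 fold change of 1.70 ± 0.0388 (adjusted p = 5.86e-29, edgeR). In both genes the 2 groups were well separated, and their fold changes stood at percentiles 98.0 and 96.2 of all genes.

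The smaller subunits behaved differently. Mlst8 encodes a WD-repeat protein bound to the kinase domain in both complexes, and lies on chromosome 17 from 24473551 to 24479078 (ENSMUSG00000024142.16). It stood at 24.97 and 22.7 CPM in input and at 23.8 and 22.9 CPM in RIP, so that the groups overlapped. Its log2 fold change was -0.03 ± 0.0817 (adjusted p = 0.746, edgeR), near the middle of all genes at percentile 50.7. Its sign turned without input replicate 1 (0.06) and without RIP replicate 2 (0.04). In the annotation 22.48% of its exon bases lie opposite exons of Bricd5, which had 0 counts in every library. The kit does not mark strand, so reads there cannot be assigned by strand.

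Deptor encodes an inhibitor that binds mTOR in both complexes. It lies on chromosome 15 from 55112317 to 55259271 (ENSMUSG00000022419.17). It was the least abundant of the 9, at 10.9 and 11.7 CPM in input and 17.8 and 18.5 CPM in RIP. The groups did not overlap, and the log2 fold change was 0.68 ± 0.103 (adjusted p = 3.61e-07, edgeR). It passed the test for any change but not a test against a change of 1.5-fold, which the 6 other genes called higher passed (24.2% of all genes passed it as higher).

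The TSC complex, the brake on RHEB, was represented by both large subunits. Tsc1 encodes hamartin and lies on chromosome 2 from 28641228 to 28691167 (ENSMUSG00000026812.17). Its level was 40.1 and 34.5 CPM in input and 110.3 and 112 CPM in RIP, with a log2 fold change of 1.57 ± 0.0552 (adjusted p = 1.73e-23, edgeR). Tsc2 encodes tuberin, which holds the GTPase-activating domain, and lies on chromosome 17 from 24595816 to 24632630 (ENSMUSG00000002496.11). Its level was 81.3 and 76.2 CPM in input and 296 and 286 CPM in RIP, with a log2 fold change of 1.88 ± 0.0376 (adjusted p = 1.32e-30, edgeR). In each gene both RIP libraries were far above both input libraries. Of the exon bases of Tsc2, 7.20% lie opposite those of Pkd1, which was also higher in RIP (60.0 ± 2.75 to 173 ± 1.68 CPM).

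Rheb, the GTPase between TSC and complex 1, was at 66.9 and 59.5 CPM in input and at 57.5 and 60.7 CPM in RIP. It lies on chromosome 5 from 24802823 to 24842624 (ENSMUSG00000028945.10) and has the shortest coding sequence of the 9, at 552 nt. The groups overlapped, and the log2 fold change of -0.10 ± 0.0570 did not pass the test (adjusted p = 0.122, edgeR). Rheb passed as lower without input replicate 2 (-0.18), and stood at 0.01 without input replicate 1. It also passed as lower with total counts (-0.44) or upper-quartile scaling (-0.44), with genes limited to at least 1 CPM in every library (-0.32), and with halved counts (-0.14). Its direction was the same in every scaling tried.

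Rps6kb1 encodes S6 kinase 1, a substrate of complex 1, and lies on chromosome 11 from 86498871 to 86544805 (ENSMUSG00000020516.16). It stood at 73.3 and 70.1 CPM in input and 131 and 139 CPM in RIP. The groups did not overlap, and the log2 fold change was 0.92 ± 0.0436 (adjusted p = 1.27e-19, edgeR), between those of Deptor and Tsc1. The CPM of RIP and input did not overlap for 7 of the 9 genes, as for 88% of all genes tested.

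Ratios between genes inside a library do not depend on scaling between libraries. Rheb and Mlst8, the denominators used here, had the lowest log2 fold changes of the 9 genes. The rise of the other genes relative to them follows from that choice and is no separate evidence. Per count of Rheb there were 1.45 and 1.47 counts of Mtor in input and 5.67 and 5.23 in RIP. Rptor went from 1.03 and 1.14 counts per count of Rheb to 4.61 and 4.18. Tsc2, which acts directly on RHEB protein, went from 1.22 and 1.28 to 5.14 and 4.71. Mlst8 had 0.373 to 0.381 in input and 0.377 to 0.413 in RIP, and these ranges overlapped. Between the kinase and its partner subunit, the ratio of Mtor to Mlst8 counts was 3.88 and 3.86 in input and 13.7 and 13.8 in RIP. The 9 genes together summed to 603 and 566 CPM in input and to 1291 and 1283 CPM in RIP, without TMM scaling. Rheb made up 12.5% and 11.9% of these counts in input and 3.92% and 4.22% in RIP.

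**Figure D2:**
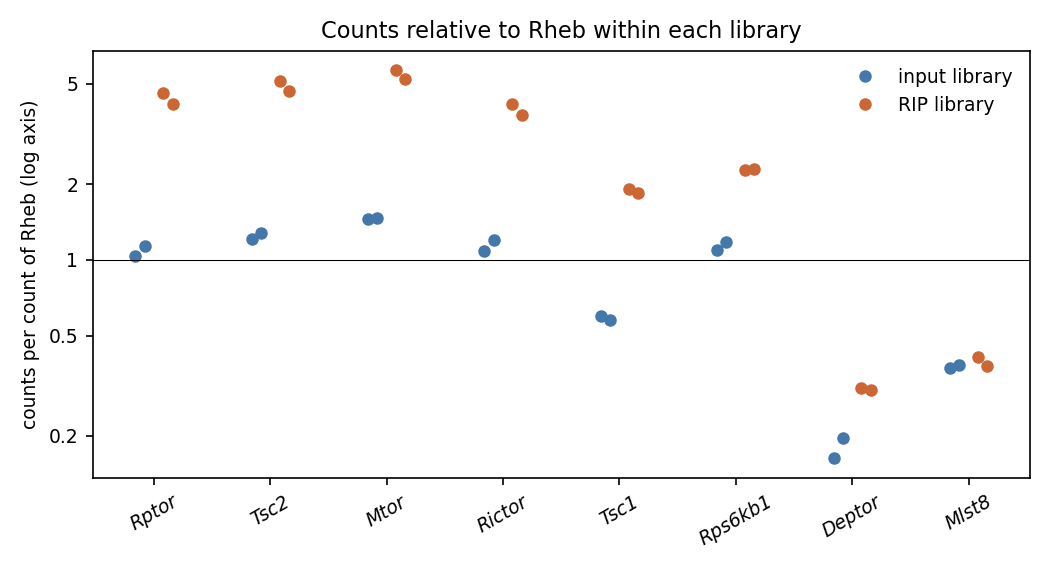
Counts of each gene per count of Rheb within each library, on a log axis, with genes ordered by the change from input to RIP. The mean ratio in RIP is 3.19- to 4.05-fold that in input for Rptor, Tsc2, Mtor, Rictor and Tsc1, 2.01-fold for Rps6kb1 and 1.71-fold for Deptor, while the points of Mlst8 overlap.

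Levels can be set against each other only per length, here as CPM per kilobase of merged exons. In input Mtor was highest at 9.13 ± 0.654, followed by Rps6kb1 (8.28 ± 0.257), Tsc2 (8.18 ± 0.377) and Rheb (8.18 ± 0.676), whose libraries overlapped one another. Mlst8 (5.37 ± 0.363) and Rptor (5.07 ± 0.0701) came next and overlapped, then Rictor (4.25 ± 0.0320), Tsc1 (3.15 ± 0.337) and Deptor (1.27 ± 0.0615). In RIP the order was Mtor (31.8 ± 0.637), Tsc2 (30.2 ± 0.746), Rptor (19.2 ± 0.603), Rps6kb1 (15.6 ± 0.667), Rictor (13.8 ± 0.463), Tsc1 (9.38 ± 0.0888), Rheb (7.66 ± 0.290), Mlst8 (5.26 ± 0.136) and Deptor (2.04 ± 0.0566), with no overlap between neighbours. The order depends on the length used. Per kilobase of the transcript with the longest coding sequence, Rheb came first in input at 35.4, ahead of Tsc2 at 14.1, Rps6kb1 at 13.0 and Mtor at 10.8, because merged exons of Rheb span 7721 nt and that transcript 1784 nt.

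The 9 messages differ widely in length, and genes with a longer coding sequence tended to have the larger fold changes. Coding sequences ran from 552 nt in Rheb and 978 nt in Mlst8, through 1227 nt in Deptor and 1575 nt in Rps6kb1, to 3483 nt in Tsc1, 4005 nt in Rptor, 5124 nt in Rictor, 5424 nt in Tsc2 and 7647 nt in Mtor. Spearman's rho between coding length and log2 fold change was 0.883 over the 9 genes and 0.639 over 14673 tested protein-coding genes, all measured in the same 4 libraries. With the length of the whole transcript the values were 0.5 and 0.579. Among all protein-coding genes, the decile with the shortest coding sequences (up to 531 nt) had a median of -1.23, and the decile with the longest (3543 nt and over) one of 1.38. For the GC content of the transcript, the rho with the fold change was 0.5 over the 9 genes and 0.0666 over all tested genes with a coding transcript.

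**Figure D3:**
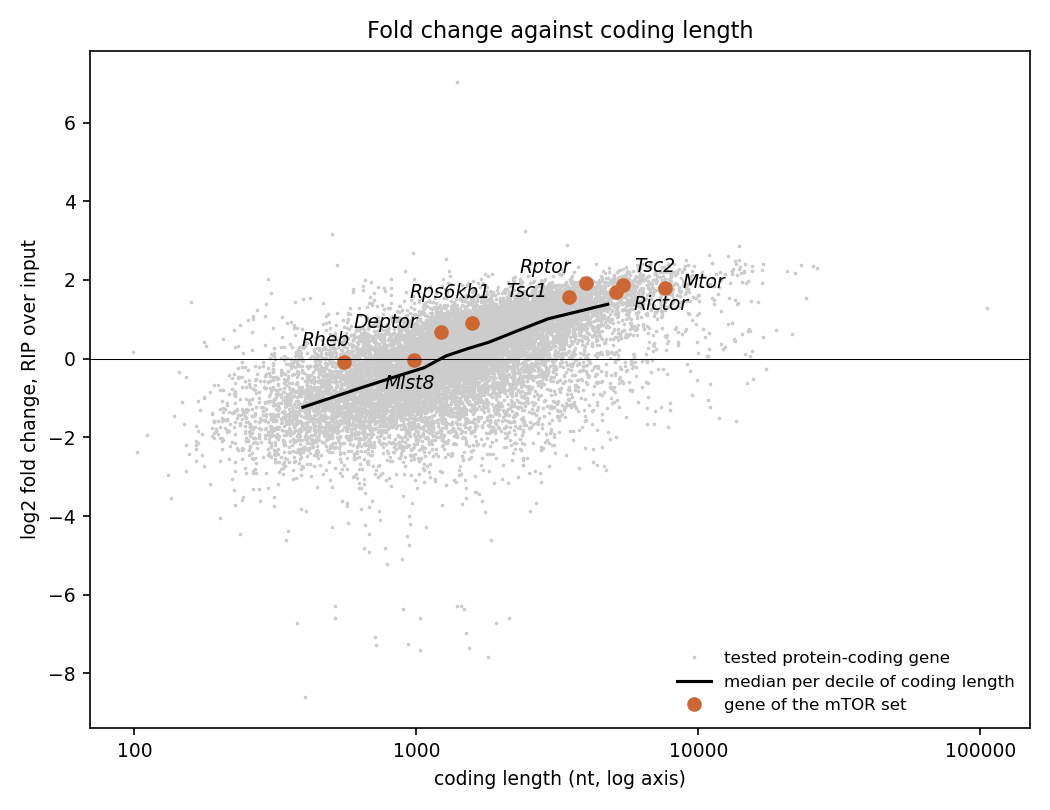
Log2 fold change of RIP over input against coding length (log axis) for tested protein-coding genes (grey), with the median of each decile of coding length (line) and the 9 genes (orange). Each of the 9 lies above the median of its decile, such as Rheb at -0.10 in a decile with a median of -0.74 and Rptor at 1.92 in a decile with a median of 1.38. The line ends at 4773 nt, short of Rictor, Tsc2 and Mtor.

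Each of the 9 genes lay above the trend of coding length. When that trend was fitted over all protein-coding genes and entered as an offset, all 9 were called higher, against 38% of the 14673 genes tested, with a median of 0.55. Rptor kept the largest value (0.79), and Rheb (0.67), Rps6kb1 (0.66), Deptor (0.61), Tsc2 (0.55) and Tsc1 (0.54) followed. Rictor (0.41), Mtor (0.29) and Mlst8 (0.25) were lowest, so the kinase with the longest coding sequence was among the least distant from its trend. An offset for whole-transcript length, added after the data were seen, gave another picture: 7 were higher and 2 lower, against 37.4% and 36.4% of all genes. Deptor, whose 3′ UTR of 7136 nt makes up most of its 8547 nt transcript, then stood at -0.39, and Mlst8, with a 3′ UTR of 2279 nt, at -0.47. With an offset for the length of merged exons 6 were higher and Rheb was lower (-0.60), against 40.4% and 29.9% of all genes, while Deptor (0.09) and Mlst8 (-0.11) did not pass. Mtor, Rptor, Rictor, Tsc1, Tsc2 and Rps6kb1 were called higher under all 3 offsets.

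**Figure D4:**
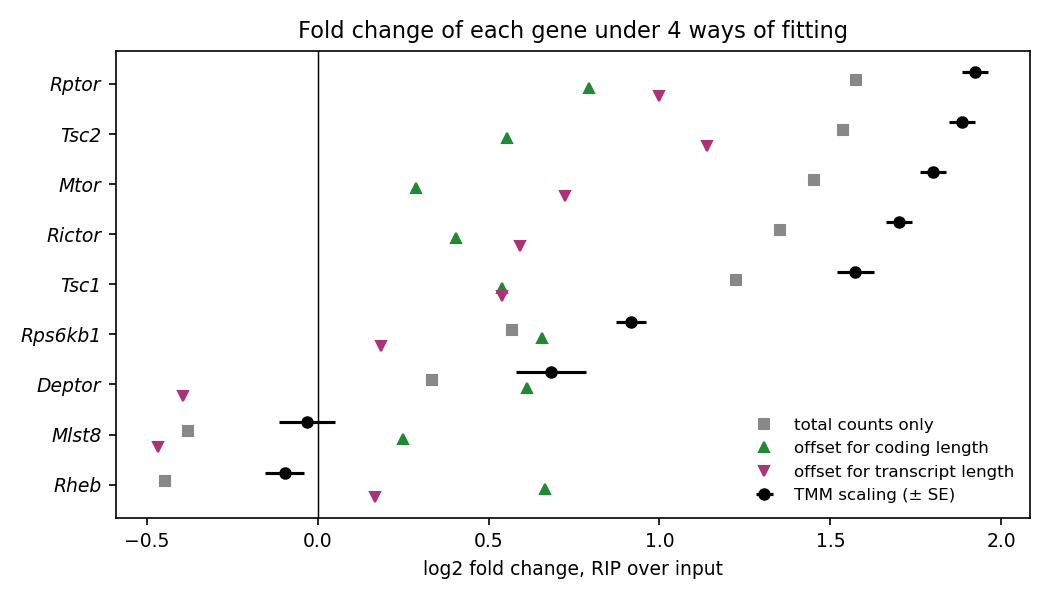
Log2 fold change of RIP over input for each gene with TMM scaling (with SE), with total counts only, and with offsets for coding length or transcript length. The 6 genes from Rps6kb1 to Rptor stay to the right of 0 under all 4, while Deptor, Mlst8 and Rheb cross 0 with the length used.

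Among 10 partners and close relatives of the 9 genes, 6 were higher and 3 lower, beside 38.7% and 38.6% of all genes. With total counts 5 were higher and 4 lower, beside 28.7% and 50.8% of all genes. The median log2 fold change was 0.40. Mapkap1, which encodes the SIN1 subunit of complex 2, rose by 0.84 on the log2 scale, and Tti1, which helps assemble kinases of this family, by 1.56. The genes that fell were Akt1s1 (-0.54), which encodes the complex 1 inhibitor PRAS40, Tbc1d7 (-0.30), the small subunit of TSC, and Rhebl1 (-0.33), the close relative of Rheb, the last named after its values were seen. With the coding length offset only Akt1s1 of these 3 was still called lower (-0.26). Tbc1d7 then did not pass (0.07, adjusted p = 0.515, edgeR), and Rhebl1 was called higher (0.41, adjusted p = 0.00576, edgeR).

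In the amino acid branch, which carries nutrient signals to complex 1 through Rag GTPases, 16 of 30 genes were higher and 8 lower (all genes 38.7% and 38.6%), against 14 and 13 with total counts (all genes 28.7% and 50.8%). The median was 0.25. Fnip1, a partner of folliculin, rose by 1.27 on the log2 scale. Lamtor4 fell from 211 ± 1.04 to 58.2 ± 0.603 CPM (-1.85), and Lamtor1 by 0.89; both encode subunits of Ragulator, the lysosomal anchor of the Rag GTPases. The coding sequence of Lamtor4 is 297 nt long. With the coding length offset the list counted 17 higher and 7 lower, beside 5573 and 5193 of the 14673 genes tested. Lamtor4 was then still called lower (-0.62), while Lamtor1 did not pass (adjusted p = 0.974, edgeR).

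In the growth factor and energy branch, 18 of 21 genes were higher and 2 lower (all genes 38.7% and 38.6%), with a median of 0.79. With total counts 15 were higher and 4 lower (all genes 28.7% and 50.8%). Akt1, whose protein phosphorylates TSC2, rose by 0.92 and Pik3r2, a regulatory subunit of PI3 kinase, by 0.79. The 2 that fell were Ddit4 (-0.58) and Ddit4l (-1.51), which encode the stress-induced mTOR inhibitors REDD1 and REDD2. With the coding length offset Ddit4l was still called lower (-0.80), and Ddit4 did not pass (-0.01, adjusted p = 0.869, edgeR).

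Among substrates and effectors 17 of 23 were higher and 5 lower (all genes 38.7% and 38.6%), with a median of 0.74. With total counts 15 were higher and 6 lower (all genes 28.7% and 50.8%). Eif4g1, the scaffold of the cap-binding complex, rose from 672 ± 2.38 to 2519 ± 49.0 CPM, and Eif4b, an S6 kinase substrate that aids the helicase eIF4A, by 1.11. Rps6, the ribosomal protein after which S6 kinase is named, fell from 967 ± 12.4 to 454 ± 0.665 CPM, and Eif4ebp1, the translational repressor 4E-BP1, fell by 1.00. The others that fell, named after their values were seen, were Eif4e (-0.87), Maf1 (-0.27) and Atf4 (-0.11). With the coding length offset Rps6 (-0.60) and Eif4e (-0.26) were still called lower, while Eif4ebp1 (0.14), Maf1 (0.19) and Atf4 (0.09) were called higher. Over all 84 genes of the 4 lists, 57 were higher and 18 lower, beside 38.7% and 38.6% of all genes, and the median of 0.68 stood below the 1.57 of the 9 genes. With total counts 49 and 27 of the 84 were higher and lower, beside 28.7% and 50.8% of all genes. With the coding length offset the counts were 57 and 12, beside 5573 and 5193 of the 14673 genes tested. The median of the 84 was then 0.359, against 0.554 for the 9 genes and 0.545 for the growth factor and energy branch.

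**Figure D5:**
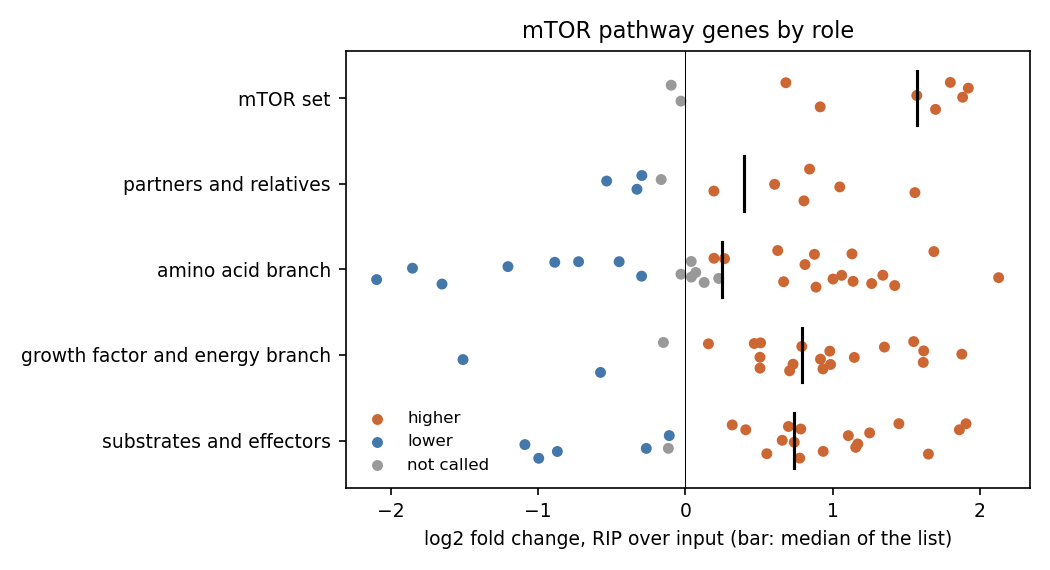
Log2 fold change of RIP over input for the 9 genes and for 4 lists of other pathway genes, with 1 point per gene coloured by its call and a bar at the median of each list. Medians are 1.57, 0.40, 0.25, 0.79 and 0.74 from top to bottom, without a length offset, and each of the 4 other lists has a lower median than the 9 genes. With the coding length offset (not drawn) the medians are 0.554, 0.366, 0.301, 0.545 and 0.196 in the same order.

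The genes most like Mtor over the 4 libraries, by Euclidean distance of log2 CPM among 14194 named protein-coding genes, were Ralgapb (distance 0.0910), Nup160 (0.111) and Clcn5 (0.121). Their log2 fold changes were 1.85, 1.83 and 1.70. Ralgapb encodes a subunit of a GTPase-activating complex for Ral proteins and Nup160 a nuclear pore protein. The genes most like Mlst8 were Vta1 (0.105), Rhbdd1 (0.108) and Nme7 (0.125), with log2 fold changes of -0.03, -0.08 and -0.07. The first group had coding sequences of 2448 to 4521 nt and the second of 927 to 1185 nt.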

How the data were processed

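For 2 input and 2 RIP libraries the authors deposited raw counts of reads per gene; groups and replicate numbers came from the sample titles. Per the submitters' processing notes, the authors used Trimmomatic 0.36, cutadapt 4.1, STAR 2.7.2b, SAMtools and featureCounts with GRCm38; the sources used here do not give annotation release, strand setting or read-pair handling. Even counts made up 65.4% to 67.4% of nonzero counts, as counting each mate of a pair separately would give, which overstates depth. GENCODE M21 named 52081 of 55357 identifiers, 35 with the same version, so counted gene models can differ from those described.

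Counts were filtered with filterByExpr, scaled by TMM (factors 0.880 to 1.13) and tested with edgeR 4.0.16 (robust quasi-likelihood) in R 4.3.3 over 17422 genes, called at an adjusted p of 0.05. The SE is the log2 fold change over the root of the F statistic. Alternatives included DESeq2 1.42.0, limma 3.58.1 and loess offsets (span 0.3) for length. An exact permutation test of 2 against 2 libraries cannot go below 0.333 and was not used. Between replicates, the median chi-square statistic of halved counts (sums of at least 20) was 1.19 (input) and 1.15 (RIP) times sampling noise. Between input 1 and RIP 1 it was 60.8 times. Replicates were kept as separate libraries, but ratios this near 1 do not tell separate preparations from technical repeats.

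The 9 genes and all lists were chosen with earlier results of these data known. Named pathway genes are the 2 called per direction and list with the highest mean CPM; 1 gene that this rule picks is not reported here.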

Additional observations from a re-analysis of the deposited data

How the results depend on the processing

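Of the 9 genes, 7 were higher in RIP under every scaling, filter, test tool and left-out library tried; the 1.5-fold test and the merged exon length offset left 6, and the coding length offset gave 9. The count of genes called lower, 0 with TMM, was 2 with upper-quartile scaling, with total counts, with at least 1 CPM in every library and with the transcript length offset, and 1 with halved counts, with the merged exon length offset and without input replicate 2 (0 to 1 over left-out libraries). The single gene was Rheb, and the pair was Rheb and Mlst8, or Deptor and Mlst8 with the transcript length offset. Signs turned for Mlst8 without a low-count filter (0.024), without input replicate 1 or RIP replicate 2 (-0.095 to 0.061 over left-out libraries) and with the coding length offset (0.25), for Rheb without input replicate 1 (-0.18 to 0.011 over left-out libraries) and with coding (0.67) or transcript length (0.17), and for Deptor with transcript length (-0.39). The cause was not tested. Against a 1.5-fold change, 4210 of 17422 genes were higher and 4426 lower, and of the 84 other pathway genes 40 were higher and 10 lower. With the replicate number as a block (replicate block), 7 of the 9 were again higher and 0 lower; the labels do not say that numbers mark shared preparations, and deviations of same-numbered libraries correlated at -0.00103. With 2 libraries per group, precision is lowest for Deptor, which had 269 to 625 counts per library.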

Other observations

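In the wider pathway the 4E-BP2 gene Eif4ebp2, picked out after its values were seen, had a coding sequence of 360 nt and rose by 0.94 on the log2 scale, while Eif4ebp1, with 351 nt, fell by 1.00. With the coding length offset Eif4ebp2 stood at 2.06 and Eif4ebp1 at 0.14. Castor2, with 987 nt of coding sequence, rose by 1.14, while its relative, the arginine sensor gene Castor1 (993 nt), fell by 0.30; these were also picked out after their values were seen. With the coding length offset Castor2 stood at 1.41, and Castor1 did not pass (-0.03, adjusted p = 0.814, edgeR). Whole transcripts differ in length within both pairs. They measure 5784 nt for Eif4ebp2 and 1997 nt for Eif4ebp1, and 7367 nt for Castor2 and 1574 nt for Castor1. Over all tested protein-coding genes, Spearman's rho between transcript length and fold change was 0.579. The part of transcript length in these differences was not tested.

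Annotated genes lay opposite 5 of the 9. Rptoros, antisense to Rptor over 84 exon bases, had 5 to 23 counts per library, and Gm9920, antisense to Deptor over 303, had 3 to 9. Rnft1, opposite Rps6kb1 over 155 exon bases, had a log2 fold change of 0.36, against 0.92 for Rps6kb1. Pkd1, opposite Tsc2 over 693 exon bases, had 1403 to 5909 counts per library and a log2 fold change of 1.53, against 1.88 for Tsc2. Stretches of the Deptor transcript matched Zscan2, Trub1, Glcci1 and Ecsit at 95.146% to 95.495% identity over 103 to 111 nt. Ecsit had 1321 to 2033 counts per library, Zscan2 301 to 512, Trub1 360 to 521 and Glcci1 2 to 7. How the counting treated reads from these stretches was not tested. This search used the longest-coding transcript of each of the 9, and kept matches to genes of the count table. The searched transcripts of Rheb, Mtor, Rptor, Rictor, Tsc1 and Tsc2 had no match to another gene at 95% identity over 100 nt or more. Exon bases outside the searched transcripts were not covered.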
